A study of Mus musculus with 4 samples.

Results

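Serine and one-carbon metabolism was followed through 9 enzyme genes, Phgdh, Psat1, Psph, Shmt1, Shmt2, Mthfd1, Mthfd2, Mthfd1l and Aldh1l2, in mouse osteoclast cultures treated with the p38α inhibitor BMS-582949 or with its solvent. The genes were picked by function, as the enzymes of serine synthesis and of the folate-bound one-carbon cycle, and each of the 9 symbols matched 1 of the 23390 gene models in the deposited count table. The choice was made with results of this same treatment comparison in view, so the values of the 9 genes are given as a description. Their calls are counted but carry no weight as evidence.

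The tested cultures received 10 µM BMS-582949 (2 libraries) and the control cultures received DMSO (2 libraries). All 4 came from wild-type C57BL/6J mouse bone marrow, which was first expanded for 3 days in supernatant of the fibroblast line L929 as the source of macrophage growth factor (M-CSF, equal to 20 ng/ml). The attached macrophages were then given 40 ng/ml RANKL, the cytokine that drives them to fuse into bone-resorbing osteoclasts, and RNA was taken at day 4. Exposure to the compound is given as 4 days in 1 place of the labels and as 3 days, followed by fresh medium, in another. Neither the age and number of the mice nor the independence of the 2 cultures of a group is stated.

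Serine is made from the glycolytic intermediate 3-phosphoglycerate by the enzymes PHGDH, PSAT1 and PSPH in sequence. Serine hydroxymethyltransferases then split serine into glycine and a one-carbon unit that is carried on tetrahydrofolate. The unit is oxidised in mitochondria and leaves them as formate, which the cytosol uses to build purines and thymidylate and to recharge methionine. Dividing cells are known to draw on this route for nucleotides, and macrophages are known to use serine for glutathione and for S-adenosylmethionine.

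Of the 9 genes, 7 were called higher with BMS-582949, none was called lower, and Mthfd2 and Aldh1l2 were not called (edgeR quasi-likelihood test across all genes, Benjamini-Hochberg adjusted p under 0.05). Across the 13214 genes tested, 60.2% were called, 30.5% as higher and 29.7% as lower. In 8 of the 9 genes both BMS-582949 libraries lay above both DMSO libraries, as they did in 41.4% of all genes (38.7% had both below). A call with a difference over 2-fold was made for 5 of the 9 genes and, upward, for 9.94% of all genes. That count of 5 was 4 under 8 of the alternatives, where Mthfd1l or Phgdh came out just under 2-fold. The log2 fold changes (BMS-582949 minus DMSO) of the 9 genes ran between -0.03 for Mthfd2 and 1.52 for Psat1, with a median of 1.00, where the median of all tested genes was 0.03. Together the 9 genes took 0.0710% and 0.0679% of all raw counts in the BMS-582949 libraries and 0.0305% and 0.0302% in the DMSO libraries, without scaling. Libraries held 37455168 to 39255925 counts with BMS-582949 and 35331889 to 36178333 with DMSO. Levels below are TMM-scaled CPM (counts per 1e6 counts of the library, scaled by the trimmed mean of M-values). On that scale the 9 genes differed less, at sums of 616 and 601 CPM with BMS-582949 and 347 CPM in each DMSO library.

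**Figure D1:**
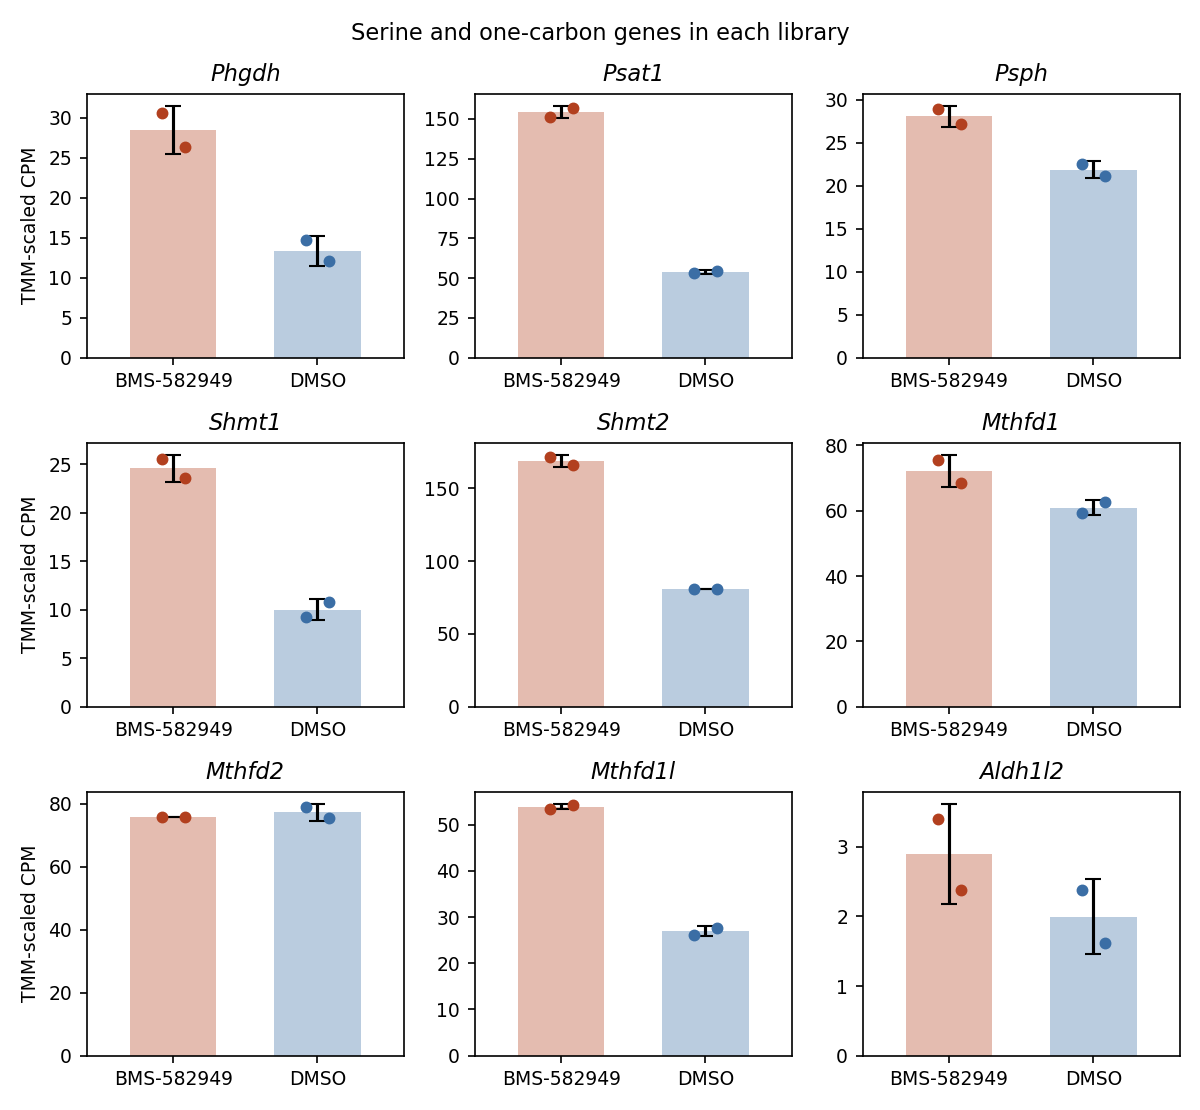
TMM-scaled CPM of the 9 genes in each library (points), with the mean (bar) and SD (error bar, n = 2 each), BMS-582949 at left and DMSO at right, each panel on its own axis from 0. Psat1 reaches 151 and 157 CPM with BMS-582949 against 53.0 and 54.7 CPM with DMSO, while the points of Mthfd2 lie between 75.4 and 79.2 CPM in all 4 libraries.

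The serine synthesis enzymes differed in how far they stood apart. Phgdh (chromosome 3, 98313170 to 98339990, minus strand, GRCm38), which encodes the dehydrogenase that opens the pathway, had 30.6 and 26.3 CPM in the BMS-582949 libraries, against 14.7 and 12.04 CPM in the DMSO libraries. Its log2 fold change was 1.09 ± 0.13 (SE), and the groups did not overlap. The annotation holds 8 processed pseudogenes that match at least 500 bases of the Phgdh transcript at 95% identity or more, the closest of them Gm7901 at 98.7% over 1597 bases. None of the 8 is a row of the count table, so reads shared with them could have been lost from Phgdh or added to it, and its level is uncertain to that extent.

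Psat1 (chromosome 19, 15904678 to 15947337, minus strand), the aminotransferase gene of the middle step, had 151 and 157 CPM with BMS-582949 and 53.0 and 54.7 CPM with DMSO. Both treated libraries lay far above both controls, and the log2 fold change of 1.52 ± 0.06 (SE) was the highest among the 9 genes under every setting tried. Psph (chromosome 5, 129765558 to 129787449, minus strand), the phosphatase gene of the last step, had 28.9 and 27.2 CPM with BMS-582949 and 22.6 and 21.2 CPM with DMSO. The groups were apart but close, at 0.36 ± 0.11 (SE) on the log2 scale. The call of Psph ended without DMSO replicate 2 (log2 fold change 0.32). An opposite-strand transcript of another gene model overlaps 10.4% of the Psph exon length, and the strand setting of the counting is not given in the sources used here.

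Both serine hydroxymethyltransferase genes stood higher. Shmt1 (chromosome 11, 60788104 to 60811718, minus strand), which encodes the cytosolic enzyme, had 25.6 and 23.6 CPM with BMS-582949 and 9.27 and 10.8 CPM with DMSO, a log2 fold change of 1.29 ± 0.12 (SE). Shmt2 (chromosome 10, 127517123 to 127522444, minus strand), which encodes the mitochondrial enzyme, had 172 and 166 CPM with BMS-582949 and 80.7 CPM in each DMSO library, a log2 fold change of 1.06 ± 0.06 (SE). For neither gene did the groups overlap. Exons of Smcr8, on the opposite strand, overlap 4.74% of the Shmt1 exon length. Smcr8 had 48.4 and 46.9 CPM with BMS-582949 and 51.6 and 51.8 CPM with DMSO. As the strand setting is not given, the Shmt1 level is uncertain to that extent. Per kilobase of exon, Shmt2 counts were 8.39 and 8.78 times those of Shmt1 in the BMS-582949 libraries and 10.9 and 9.36 times in the DMSO libraries. The mitochondrial form was thus the more abundant message in all 4 libraries, and the ratio was lower in both BMS-582949 libraries.

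The folate-interconverting enzymes split. Mthfd1l (chromosome 10, 3973118 to 4167081, plus strand), which encodes the mitochondrial formyltetrahydrofolate synthetase that releases formate, had 53.5 and 54.3 CPM with BMS-582949 and 26.1 and 27.7 CPM with DMSO, a log2 fold change of 1.00 ± 0.09 (SE). Mthfd2 (chromosome 6, 83305691 to 83325908, minus strand), which encodes the mitochondrial dehydrogenase and cyclohydrolase that acts just before it, had 75.7 and 75.8 CPM with BMS-582949 and 79.2 and 75.4 CPM with DMSO. The Mthfd2 groups overlapped, and its log2 fold change was -0.03 ± 0.07 (SE). Mthfd1 (chromosome 12, 76255298 to 76319803, plus strand), which encodes the cytosolic enzyme with 3 activities that takes formate back up, had 75.6 and 68.6 CPM with BMS-582949 and 59.3 and 62.6 CPM with DMSO, a log2 fold change of 0.24 ± 0.07 (SE). The Mthfd1 groups did not overlap, and the call ended on leaving out BMS-582949 replicate 1 (0.17) or DMSO replicate 1 (0.21).

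Ratios within a library do not depend on scaling. Mthfd1l counts were 0.706 and 0.716 of Mthfd2 counts in the BMS-582949 libraries and 0.330 and 0.367 of them in the DMSO libraries. For Psat1 the same ratio was 2.0 and 2.07 with BMS-582949 and 0.669 and 0.726 with DMSO, and for Mthfd1 it was 0.999 and 0.905 with BMS-582949 and 0.749 and 0.830 with DMSO. All 8 other genes had a higher mean ratio to Mthfd2 in the BMS-582949 libraries, by 1.21 times for Mthfd1 up to 2.92 times for Psat1. Taken per kilobase of exon, Mthfd1l and Mthfd2 together stood at 1.98 and 2.20 times Mthfd1 in the BMS-582949 libraries and at 2.14 and 1.98 times in the DMSO libraries, and these groups overlapped.

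Aldh1l2 (chromosome 10, 83487450 to 83534140, minus strand), which encodes the mitochondrial enzyme that oxidises formyltetrahydrofolate to carbon dioxide, was the least abundant of the 9 genes. It had 154 and 101 counts (3.40 and 2.39 CPM) with BMS-582949 and 74 and 51 counts (2.38 and 1.62 CPM) with DMSO. The lower treated library and the higher control library were nearly level, and the log2 fold change was 0.54 ± 0.31 (SE). Exons of D10Wsu102e, on the opposite strand, overlap 14.1% of the Aldh1l2 exon length, and that gene had 42.3 and 37.0 CPM with BMS-582949 and 39.1 and 38.2 CPM with DMSO. Aldh1l2 counts per kilobase of exon were 0.0376 and 0.0260 of those of Mthfd1l in the BMS-582949 libraries and 0.0539 and 0.0345 in the DMSO libraries, and these groups overlapped.

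**Figure D2:**
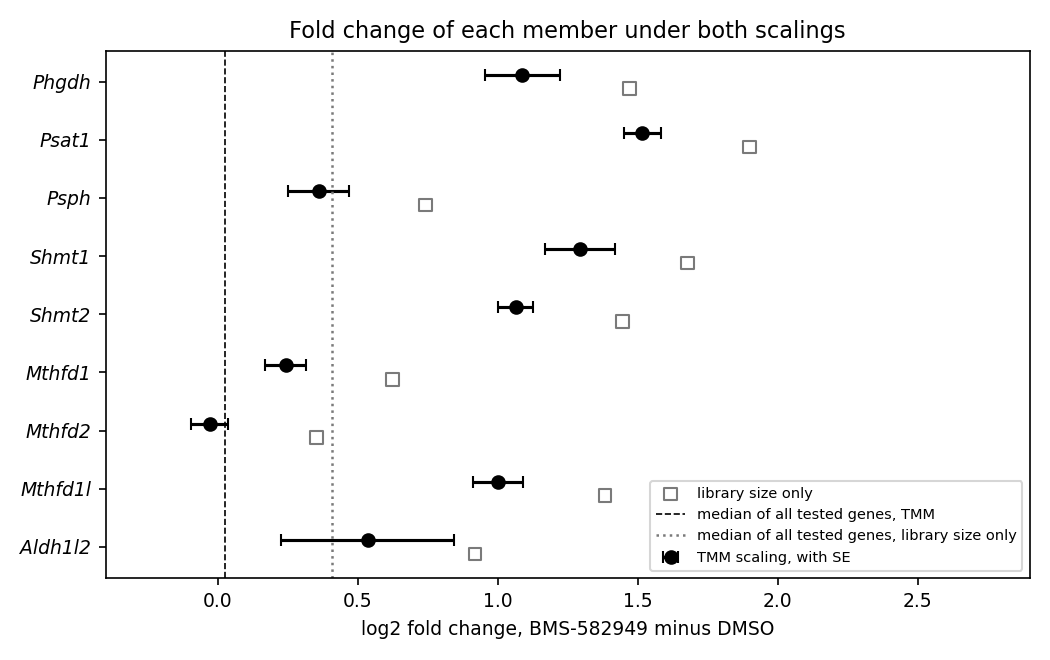
Log2 fold change (BMS-582949 minus DMSO, horizontal axis) of each gene with TMM scaling (filled circles with SE, n = 2 each) and with library size only (open squares), beside the median of all tested genes under each scaling (0.03, dashed, and 0.41, dotted). Psat1 lies farthest to the right at 1.52, and Mthfd2 lies left of both medians, at -0.03 with TMM and 0.35 with library size only.

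The distance between the scalings bears on the smaller changes. With library size only, the median of all tested genes was 0.41, a shift of 0.381 against TMM, and all 9 genes were called higher, beside 51% of all genes under that scaling (17% lower). Mthfd2 was then at 0.35 and Aldh1l2 at 0.92, both called higher, so for these 2 genes the call rests on the scaling. Relative to the median of all genes, Mthfd2 was below it under both scalings and the other 8 genes were above it.

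The order of the levels, taken as TMM-scaled CPM per kilobase of exon, also differed between the groups. With BMS-582949 it ran Shmt2 (54.3), Psat1 (36.2), Mthfd2 (21.7), Mthfd1 (16.2), Mthfd1l (12.1), Phgdh (11.4), Psph (6.48), Shmt1 (6.33) and Aldh1l2 (0.386). With DMSO the order was Shmt2 (26.0), Mthfd2 (22.2), Mthfd1 (13.7), Psat1 (12.7), Mthfd1l (6.07), Phgdh (5.38), Psph (5.05), Shmt1 (2.58) and Aldh1l2 (0.266). By this length, Psat1 stood above Mthfd2 and Mthfd1 with BMS-582949 and below both with DMSO. With the longest transcript's length in its place, Psat1 stood above Mthfd1 in both groups (20.6 and 18.8 with DMSO), Mthfd2 passed Shmt2 with DMSO (37.1 and 35.3), and Phgdh, Mthfd1l and Psph changed places. Per kilobase of exon, neighbours whose libraries overlapped were Mthfd1l and Phgdh in both groups, Psph and Shmt1 with BMS-582949, and Phgdh and Psph with DMSO.

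**Figure D3:**
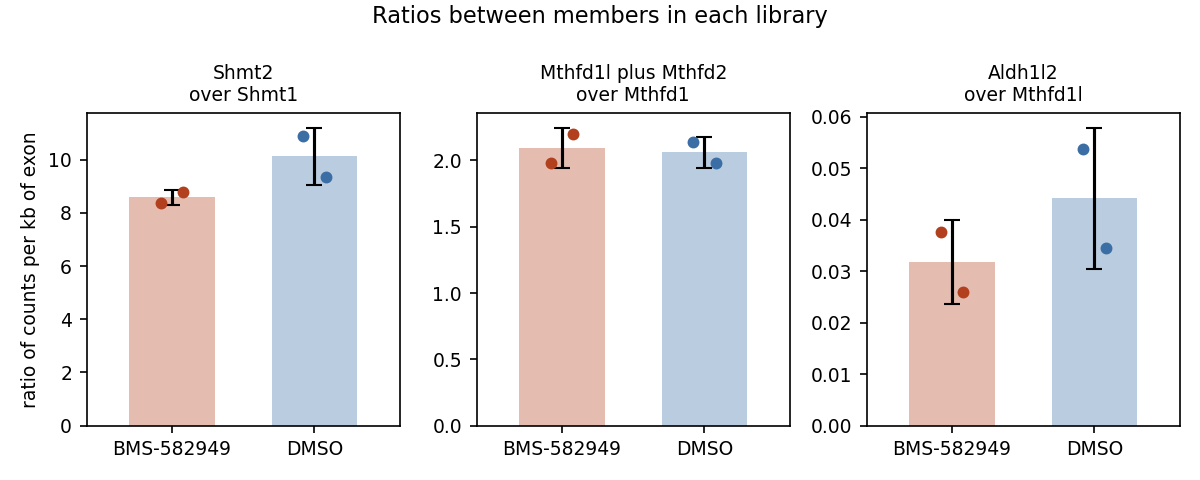
Ratios of counts per kilobase of exon between members in each library (points), with mean (bar) and SD (error bar, n = 2 each), BMS-582949 at left and DMSO at right. Shmt2 over Shmt1 averages 8.58 with BMS-582949 and 10.1 with DMSO, and for the other 2 ratios the libraries of the groups overlap.

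RefSeq promoter windows (GRCm38.p6, 250 bases before to 50 after the gene start) were at hand for 8 of the 9 genes, with 2 windows for Psat1. Shown are Psat1, with the largest difference, Mthfd2, which was not called, and Shmt2, which has no CCAAT, each 5′ to 3′ on the gene's strand with CCAAT or its reverse complement ATTGG in capitals.
Psat1 promoter, chr19:15925010-15925309, minus strand: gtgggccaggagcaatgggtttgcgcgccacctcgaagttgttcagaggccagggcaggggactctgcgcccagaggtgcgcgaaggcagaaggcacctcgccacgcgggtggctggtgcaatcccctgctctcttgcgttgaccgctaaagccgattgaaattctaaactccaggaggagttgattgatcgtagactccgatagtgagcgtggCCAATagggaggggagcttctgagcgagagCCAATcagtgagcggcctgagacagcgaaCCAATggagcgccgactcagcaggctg
Mthfd2 promoter, chr6:83317555-83317854, minus strand: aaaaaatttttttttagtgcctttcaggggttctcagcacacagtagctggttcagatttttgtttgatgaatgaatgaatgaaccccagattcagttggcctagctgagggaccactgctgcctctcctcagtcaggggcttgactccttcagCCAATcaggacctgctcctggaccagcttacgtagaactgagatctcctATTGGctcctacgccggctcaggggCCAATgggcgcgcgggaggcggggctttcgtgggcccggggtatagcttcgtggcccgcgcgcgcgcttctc
Shmt2 promoter, chr10:127522395-127522694, minus strand: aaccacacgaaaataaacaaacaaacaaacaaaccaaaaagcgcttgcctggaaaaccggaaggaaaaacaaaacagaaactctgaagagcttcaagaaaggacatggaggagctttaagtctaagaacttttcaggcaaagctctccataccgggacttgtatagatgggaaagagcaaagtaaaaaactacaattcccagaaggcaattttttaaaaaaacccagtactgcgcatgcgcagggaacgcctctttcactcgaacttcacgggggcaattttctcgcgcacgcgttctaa
CCAAT, the letters bound by the factor NF-Y, occurred on either strand 3 times in the first Psat1 window, 3 times in Mthfd2 and nowhere in Shmt2. The Psat1, Mthfd2 and Shmt1 windows lie within the GENCODE spans given above. Those spans reach further upstream than the RefSeq starts used for the windows. CCAAT on either strand was in 6 of the 9 windows (of Phgdh, Psat1, Psph, Shmt1, Mthfd1 and Mthfd2), and in 37.4% of all 32851 promoter windows of the same length. The second Psat1 window did not hold it. The letters TGATGNAA (the C/EBP-ATF composite element read by ATF4, in 3.97% of all windows), CACGTG (the E-box, 7.15%) and TTTNGCGC (an E2F-type motif, 1.38%) were in none of the 9 windows on either strand. The motifs do not contain one another.

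Around the 9 enzymes, 8 lists of 78 genes in all were examined, of which 69 had enough counts to test. With BMS-582949, 32 of these rose and 20 fell, at a median log2 fold change of 0.16 (30.5% and 29.7% of all tested genes; all-gene median 0.03). With library size only the counts were 45 and 12, beside 51% and 17% of all tested genes. The share called lower was then near that of all tested genes. Adjusted p-values below are from the edgeR quasi-likelihood test over all 13214 genes, and SDs are over n = 2 libraries each. Rose and fell mean called higher or lower with BMS-582949 than with DMSO at day 4, since no earlier day was sampled.

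Purine synthesis is a main outlet of one-carbon units. Of 13 genes, all tested, 11 rose, 1 fell and 1 was not called, with a median of 0.74. Prps1, which makes the ribose phosphate donor, averaged 39.6 ± 2.87 CPM with BMS-582949 and 16.2 ± 3.29 CPM with DMSO (log2 fold change 1.29 ± 0.14 SE, adjusted p = 5.0e-06). Impdh2, which commits inosinate to guanine nucleotides, averaged 220 ± 4.60 CPM with BMS-582949 and 97.9 ± 2.08 CPM with DMSO (1.17 ± 0.06, adjusted p = 7.4e-09), although a processed pseudogene outside the table matches 1545 bases of it at 99.7%. Ppat, the amidotransferase of the first committed step, rose by 0.74 ± 0.12 on the log2 scale (adjusted p = 1.6e-04). Gart and Atic, the enzymes that consume formyltetrahydrofolate, rose by 1.02 and 0.73. The faller was Adssl1, a form of adenylosuccinate synthase known from muscle, at 173 ± 0.0132 CPM with BMS-582949 and 321 ± 5.54 CPM with DMSO (-0.89 ± 0.06, adjusted p = 6.3e-08). With library size only, 12 rose and 1 fell (51% and 17% of all tested genes).

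Folate uptake and reduction genes rose in 5 of 8 cases and fell in 1, with a median of 0.47 (0.33 with the GC and length trend removed and 0.35 without DMSO replicate 2). The reduced folate carrier gene Slc19a1 averaged 41.9 ± 1.06 CPM with BMS-582949 and 27.2 ± 2.99 CPM with DMSO (0.62 ± 0.11, adjusted p = 2.7e-04). The proton-coupled folate carrier gene Slc46a1 fell, at 16.7 ± 4.39 CPM with BMS-582949 and 53.0 ± 3.66 CPM with DMSO (-1.67 ± 0.15, adjusted p = 1.0e-06). Slc19a1 and Slc46a1 thus moved in opposite directions under both scalings, at 1.00 and -1.29 with library size only.

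Of 7 tested genes among 8 other folate enzymes, 2 rose and 4 fell, with a median of -0.49 (-0.11 with library size only). The count of risers was 1 under the DESeq2 test and on leaving out BMS-582949 replicate 1 or DMSO replicate 2. Tyms, which makes thymidylate, rose to 52.4 ± 1.23 CPM with BMS-582949, against 18.4 ± 0.579 CPM with DMSO (1.51 ± 0.10, adjusted p = 4.7e-08). Aldh1l1, the cytosolic counterpart of Aldh1l2, fell to 19.0 ± 2.36 CPM with BMS-582949, against 43.9 ± 0.713 CPM with DMSO (-1.21 ± 0.12, adjusted p = 1.7e-06). Mthfs, which recycles formyltetrahydrofolate, changed by -1.15 ± 0.11 (adjusted p = 2.2e-06). Over 801 bases its transcript matches the model Mthfsl at 99.4%, so reads from that stretch could be split between them, and its level is uncertain to that extent. Mthfd2l, the close relative of Mthfd2, averaged 5.50 ± 0.258 CPM with BMS-582949 and 7.73 ± 0.353 CPM with DMSO (-0.49 ± 0.17, adjusted p = 0.022). Its call ended with library size only (-0.11) and on leaving out BMS-582949 replicate 2 (-0.47) or DMSO replicate 1 (-0.44).

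The glycine cleavage system, which breaks glycine down to a one-carbon unit, had 1 riser and 2 fallers among 4 genes (median -0.37, with 0.01 under library size only and -0.92 with at least 1 CPM in 2 libraries). Gldc, its decarboxylase, was near the detection limit, at 0.876 ± 0.169 CPM with BMS-582949 and 2.03 ± 0.134 CPM with DMSO (-1.21 ± 0.37, adjusted p = 0.014). The Gldc call ended with library size only (-0.83) and on leaving out BMS-582949 replicate 2 (-1.05) or DMSO replicate 1 (-1.14), which left 1 faller. Dld, a dehydrogenase that it shares with the pyruvate dehydrogenase complex, averaged 113 ± 4.49 CPM with BMS-582949 and 210 ± 0.445 CPM with DMSO (-0.90 ± 0.06, adjusted p = 7.9e-08). The riser, Gcsh, was close to the threshold (0.16 ± 0.06, adjusted p = 0.043), and its call ended under 8 alternatives, among them a replicate block (0.16) and the loss of BMS-582949 replicate 2 (0.11) or of DMSO replicate 2 (0.12), each of which left no riser.

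Of 11 methionine cycle genes, 7 were tested, and 4 of these rose and 1 fell (median 0.26). Mtr, the folate-dependent methionine synthase, rose by 0.72 ± 0.09 (adjusted p = 2.1e-05) and Ahcyl2, of the adenosylhomocysteinase family, by 0.77 ± 0.11 (adjusted p = 7.9e-05). Mat2a, which makes S-adenosylmethionine, averaged 205 ± 0.0308 CPM with BMS-582949 and 162 ± 5.08 CPM with DMSO (0.34 ± 0.06, adjusted p = 3.7e-04). Ahcy, the adenosylhomocysteinase gene, was at 0.22 ± 0.06 (adjusted p = 9.1e-03), shares 2083 bases with the model Gm4737 at 99.7% identity and lost its call without BMS-582949 replicate 1 (0.18). Mat2b, the regulatory partner of Mat2a, changed by -0.37 ± 0.07 (adjusted p = 4.5e-04), and by 0.01, not called, with library size only.

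Transsulfuration was scarcely detectable, with Cbs, which opens it, at 0 and 2 counts in the BMS-582949 libraries and 2 and 0 counts in the DMSO libraries. Among the 3 tested genes of this list, Gclm, the modifier subunit of the glutathione-making ligase, rose to 562 ± 46.2 CPM with BMS-582949, against 226 ± 2.68 CPM with DMSO (1.32 ± 0.07, adjusted p = 8.0e-09). The catalytic subunit gene Gclc rose by 0.77 ± 0.08 (adjusted p = 2.4e-06), while the glutathione synthetase gene Gss fell to 47.5 ± 1.24 CPM with BMS-582949, against 114 ± 8.0 CPM with DMSO (-1.27 ± 0.07, adjusted p = 1.5e-08). In serine and glycine transport and use, 3 genes were called higher, 4 lower and 6 neither of 13 tested, and 7 higher and 1 lower with library size only. These shares lie near those of all tested genes (30.5% and 29.7%, and 51% and 17% with library size only). The median was 0.005 (-0.09 without DMSO replicate 1 and 0.11 without DMSO replicate 2). Slc1a5, a transporter of glutamine and serine, averaged 131 ± 0.683 CPM with BMS-582949 and 305 ± 24.4 CPM with DMSO (-1.22 ± 0.07, adjusted p = 1.3e-08). The glycine transporter gene Slc6a9 averaged 4.77 ± 1.54 CPM with BMS-582949 and 1.82 ± 0.207 CPM with DMSO (1.39 ± 0.28, adjusted p = 9.6e-04), and 1261 bases of its transcript overlap Ccdc24. Slc38a1, a neutral amino acid transporter gene, rose by 0.39 ± 0.08 (adjusted p = 1.2e-03). Sfxn1, the mitochondrial serine carrier gene, was not called (0.14 ± 0.07, adjusted p = 0.12), and its relative Sfxn3 changed by -0.32 ± 0.07 (adjusted p = 1.7e-03), a call that ended with library size only (0.06).

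**Figure D4:**
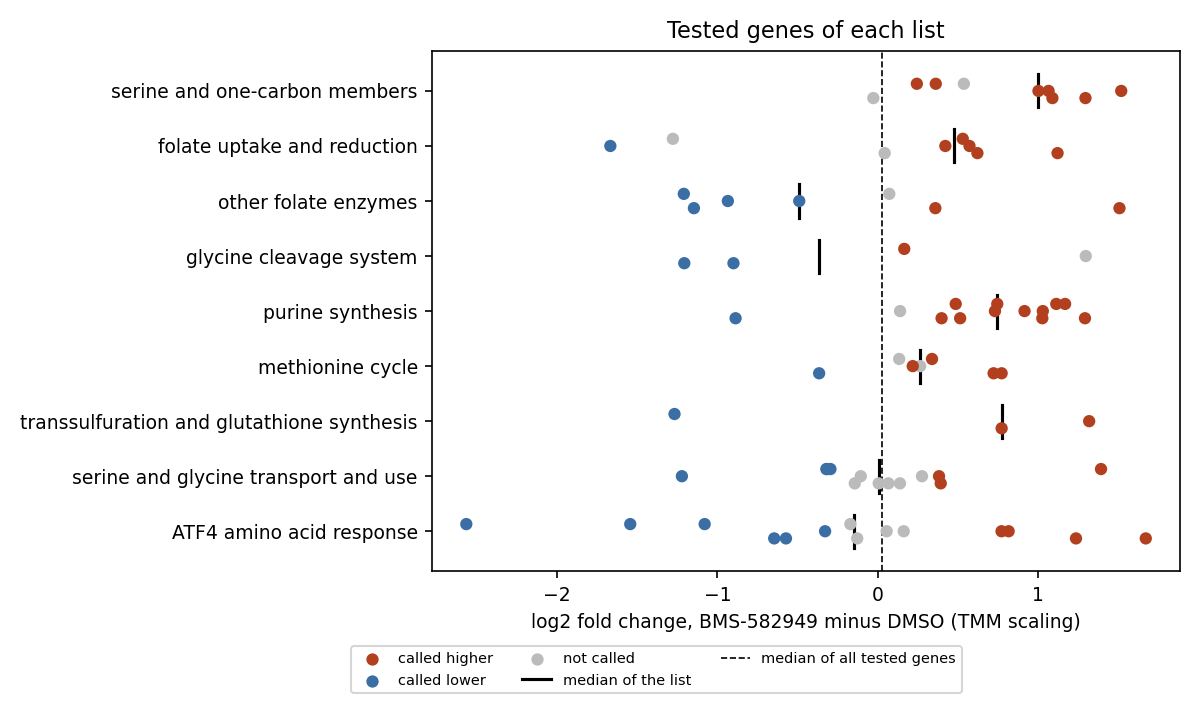
Log2 fold change (BMS-582949 minus DMSO, horizontal axis) of every tested gene in each list (vertical axis), coloured by call at an adjusted p under 0.05, with each list's median (vertical bar) and the median of all tested genes (dashed line at 0.03). The 9 members have a median of 1.00 and purine synthesis 0.74, while the amino acid response list spans -2.57 to 1.67 with a median of -0.15.

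Atf4 and Myc are transcription factors known to drive serine synthesis genes, and their messages moved in opposite directions. Atf4 fell to 236 ± 4.34 CPM with BMS-582949, against 351 ± 7.28 CPM with DMSO (-0.57 ± 0.06, adjusted p = 3.7e-06), and was lower also with library size only (-0.19). ATF4 is known to be controlled largely in translation, which these counts do not show. Myc rose to 145 ± 12.1 CPM with BMS-582949, against 49.5 ± 8.73 CPM with DMSO (1.55 ± 0.10, adjusted p = 6.2e-08). Of 14 genes of the ATF4 amino acid response, 4 rose and 6 fell (30.5% and 29.7% of all tested genes). The median of the list was -0.15, against 0.03 for all tested genes. With library size only, 7 rose and 4 fell (51% and 17% of all tested genes). The list median was then 0.23, still below that of all tested genes (0.41). With TMM scaling it was -0.04 on leaving out BMS-582949 replicate 1 and -0.30 on leaving out BMS-582949 replicate 2. The risers included the leucine transporter gene Slc7a5 (69.9 ± 0.565 CPM with BMS-582949 and 21.97 ± 2.27 CPM with DMSO, 1.67 ± 0.09, adjusted p = 9.3e-09) and Cebpb (1.23 ± 0.08, adjusted p = 4.7e-08). The fallers included Ddit4, an inhibitor of the kinase mTOR (0.792 ± 0.150 CPM with BMS-582949 and 4.70 ± 0.953 CPM with DMSO, -2.57 ± 0.31, adjusted p = 1.3e-05), and Chac1, which degrades glutathione (-1.54 ± 0.24, adjusted p = 1.3e-04).

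Over the 4 libraries, the 5 genes with a centred log2 CPM profile nearest to that of Phgdh were Gm10282, Sash1, Psip1, Lin54 and Ptp4a3, at Euclidean distances of 0.03, 0.04, 0.07, 0.08 and 0.08. With 2 groups of 2 libraries, such nearness mainly reflects a like fold change, here 1.06 to 1.10 on the log2 scale against 1.09 for Phgdh.

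Markers of other cell states moved with the groups. Beside the counts that follow, 30.5% of all tested genes were called higher and 29.7% lower. The 8 proliferation markers were all called higher, with summed levels of 1555 and 1554 CPM in the BMS-582949 libraries and 546 and 544 CPM in the DMSO libraries. The 10 osteoclast markers were all called lower, at sums of 12156 and 12315 CPM with BMS-582949 and 99133 and 103354 CPM with DMSO, and none was at 0 in either group. Of 8 macrophage markers 5 were called higher and 2 lower, at sums of 2921 and 3104 CPM with BMS-582949 and 5732 and 5979 CPM with DMSO. The sum is carried by the 2 lower markers, Cd68 (mean 1358 CPM with BMS-582949 and 3464 CPM with DMSO) and Csf1r (883 CPM with BMS-582949 and 1977 CPM with DMSO), while the median log2 fold change of the list was 0.83. Of 8 stromal markers, 6 of the 7 tested were called lower (29.7% of all tested genes were), at sums of 523 and 519 CPM with BMS-582949 and 800.4 and 729 CPM with DMSO. With library size only, the stromal markers Col1a2 (-0.15), Pdgfrb (-0.25), Cxcl12 (-0.14) and Postn (0.04) were not called, and Col1a1 and Col3a1 stayed lower. Neutrophil and dendritic cell markers summed to 16.8 to 20.8 CPM with BMS-582949 and 27.6 to 33.8 CPM with DMSO, and B cell, T and NK cell, erythroid and mast cell markers to at most 3.21 CPM in any library, with Cd3e, Cd3g, Ncr1, Mcpt4, Tpsb2, Ly6g and Siglech at 0 throughout. The part of these shifts in the values of the 9 genes was not tested. In such bulk samples, more cells of a type and more RNA per cell cannot be told apart.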

How the data were processed

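Gene counts of 4 osteoclast culture libraries were analysed. Values of the deposited table are raw counts per gene model: they are whole, and the columns differ in total. The submitters' processing notes name the tools Trimmomatic 0.36, HISAT2 2.0.4 and DESeq2 1.30.1 and the build GRCm38, without saying what each was used for. Which program counted the reads, on which annotation and with which strand setting, is not given in the sources used here. Digits of the compound's name are transposed in the titles of its samples, and the treatment label was followed. Symbols, coordinates and exon lengths came from GENCODE M21 (GRCm38), which matched 22022 of 23390 models, 1354 of the rest being models the authors named NewGene.

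The test was that of edgeR 4.0.16 (R 4.3.3) on the counts: filterByExpr at a minimum count of 10, TMM scaling and a quasi-likelihood F test without covariates. Each gene had 2 residual degrees of freedom, and its variance estimate was drawn towards those of all genes. Small p-values rest on that sharing across genes as well as on the 2 libraries per group. The test was also run on simulated data in which few genes changed, up or down. That run could not check the scaling of the real libraries, where most genes were called. SEs are the absolute log2 fold change over the square root of F. As the labels name no separate animals or cultures, p-values reflect the spread of these libraries alone, and that spread may be technical. Replicates differed by more than counting noise, with a chi-square of 14.3 per degree of freedom for BMS-582949 and 10.03 for DMSO over models with at least 20 counts in a pair. Near-identical copies were sought with BLAST at 95% identity over 500 bases.

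The 9 genes and all lists were chosen with earlier results of these data known. Named genes are the 9 members, 12 genes whatever their result, the 2 called genes per list and direction with the largest change at a mean CPM of at least 1, and the 5 genes nearest to Phgdh at a mean CPM of at least 10. Gart, Atic and Mthfsl were named outside this rule. Of the genes this rule names, 2 are not reported here. Alternatives were other scalings (DESeq2 size factors, upper quartile, library size only), other low-count filters, DESeq2 1.42.0, limma-voom (limma 3.58.1), a replicate block, leaving out each library, leaving out models without an Ensembl identifier, an adjusted p under 0.01 and, for ratios, the longest transcript's length. Removal of each library's GC and length trend (loess, span 0.3) and ratios without each library were added after seeing the data, as were the order by longest transcript, the count over 2-fold under each alternative, ratios to Mthfd2 and the promoter motifs.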

Additional observations from a re-analysis of the deposited data

How the results depend on the processing

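The count of members called higher ranged between 5 (adjusted p under 0.01) and 9 (library size only), and none was called lower under any of the 15 alternatives. The replicate block left 7 members higher and 0 lower, with 3923 genes higher and 3830 lower in all, and apart from Gcsh it ended no call of a named gene. No pairing of libraries is given in the labels, and deviations of same-numbered libraries correlated at -0.08 across genes. Under library size only, calls numbered 6738 upward and 2240 downward over all genes, and 12 downward in the wider lists. That scaling turned the sign of Mthfd2 (0.35), Mat2b (0.015) and Sfxn3 (0.061) and of the medians of the glycine cleavage (0.013) and amino acid response lists (0.23). All of these lay below the median of all tested genes under both scalings (0.41 with library size only and 0.03 with TMM). Mthfd2 was also above 0 with upper-quartile scaling (0.030), and leaving out a library gave -0.062 to 0.0086, none of these called. Sfxn1 was at -0.036, not called, with the GC and length trend removed and called higher with upper-quartile scaling (0.20) and library size only (0.52). With the longest transcript's length, the ratio of Mthfd1l and Mthfd2 to Mthfd1 was 2.30 with BMS-582949 and 2.36 with DMSO. Leaving out a library gave 6 or 7 members higher. Depth limits Aldh1l2 and Gldc, whose SEs are the widest among the 9 genes and the glycine cleavage genes called. The cause of these shifts was not tested, other than that scaling moves every gene alike.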
